A study of Mus musculus with 19 samples.

Results

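The genes described here build, cut, cross-link and pull on actin filaments in neutrophils, or link those filaments to adhesion receptors and to GTPases. They are 43 genes of actin assembly and cell motility listed by symbol, from actin itself (Actb, Actg1) and the Arp2/3 complex to the GTPases Rac1, Rac2, Cdc42 and Rhog. Of these, 36 had a probe annotated to their symbol, out of 11504 genes with an annotated probe in the table. Actr2, Arpc2, Arpc3, Flna, Rhoa, Dock2 and Gsn were not analysed here. The 36 genes had 64 probes, all of which were detected on enough arrays to be tested. The genes were listed by symbol, without a rule on measured values, but with earlier results of these data known.

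RNA of mouse neutrophils was measured on 19 Illumina BeadChip arrays, 1 array for each sample. The groups, as the labels give them, were tumor-associated neutrophils (TANs) after SM16, a compound that blocks the TGF-beta receptor kinase Alk5 (group SM16, n = 5); TANs with no SM16 in their label (TAN, n = 3, numbered 1, 2 and 4); splenic neutrophils of tumor-bearing mice (G-MDSC, n = 4); and naive neutrophils from bone marrow (NN, n = 7). The labels describe every sample as from a clonal mouse. They name no strain, age, tumour model, SM16 dose or purification, and do not say that replicates came from separate animals, so p-values measure the spread between these samples, which may be technical. The groups of neutrophils also come from different organs, so a comparison of TAN, SM16 or G-MDSC with NN compares tissues as well as tumour exposure. The study asks how TANs differ once TGF-beta signalling is blocked, and how TANs differ from splenic and naive neutrophils.

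Neutrophils crawl by pushing out a front of branched actin filaments and by contracting the rear with myosin. Profilin and thymosins hold actin monomers, cofilin and its partners take old filaments apart, and the Arp2/3 complex, switched on by WASP and WAVE proteins downstream of Cdc42 and Rac, starts new branches. Talin, kindlin-3 and vinculin couple the filaments to integrins, which neutrophils need to stop on the vessel wall, leave the blood and take up particles.

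Levels are log2 intensities after background correction and quantile normalization. Differences are log2 differences between group means ± SE, tested with limma across all probes. A difference was called where its p, adjusted by Benjamini-Hochberg, was under 0.05. Each gene is represented by its probe of highest mean intensity, the lead probe, unless a probe is named. The brightest probes leave little room for a rise: the Actb lead probe lay at 56.3 to 90.6% of the highest value on its array, and the Tmsb4x probe at 73.8 to 92.4%.

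Between 9599 and 12492 probes were detected per array, with 10880 to 12492 in SM16, 9599 to 10773 in TAN, 11283 to 11435 in G-MDSC and 10660 to 11807 in NN. The 4 G-MDSC arrays and NN replicates 6 and 7 had a lowest raw signal under 40 and the other 13 arrays a higher one, a technical split the labels do not name. Neutrophil markers fixed as a list summed to intensities of 201000 to 280000 in SM16, 2e+05 to 232000 in TAN, 381000 to 410000 in G-MDSC and 464000 to 495000 in NN, and all 11 measured markers were detected on every array of SM16, G-MDSC and NN, with 10 of 11 on every TAN array. Macrophage and monocyte markers summed to 107000 to 181000 in SM16, 22600 to 91500 in TAN, 7320 to 9920 in G-MDSC and 6340 to 13700 in NN, with all 8 measured markers detected on every array. Erythroid markers summed to 410 to 895 in SM16, 1030 to 1430 in TAN, 2250 to 14700 in G-MDSC and 107000 to 124000 in NN. Alas2 and Slc4a1 were detected on no SM16 and no TAN array. Dendritic cell markers summed to 66500 to 87100 in SM16, 76000 to 103000 in TAN, 41200 to 64900 in G-MDSC and 4550 to 9740 in NN. H2-Aa, Itgax and Zbtb46 were detected on no NN array, and Zbtb46 also on no TAN array. Eosinophil, basophil and mast cell markers summed to 110 to 367 in SM16, 116 to 287 in TAN, 96.5 to 1060 in G-MDSC and 17400 to 31700 in NN, and Epx and Mcpt8 were detected on no array of SM16, TAN or G-MDSC. Epithelial and mesothelial markers summed to 1670 to 2800 in SM16, 2560 to 5290 in TAN, 50 to 85.9 in G-MDSC and 35.5 to 118 in NN. Krt18, Krt19 and Msln were detected on no G-MDSC and no NN array. Hair follicle markers summed to 1780 to 18600 in SM16, 736 to 974 in TAN, 683 to 1020 in G-MDSC and 717 to 1340 in NN. Actin genes are expressed in all these cell types. The part of other cells in the differences below was not tested, and in RNA of whole samples fewer cells of a type and less RNA per cell cannot be told apart.

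The 3 TAN arrays did not agree on these genes. By the lead probe, 10 of the 36 genes (27.8%) lay more than 1 log2 unit lower on both TAN 1 and TAN 2 than on TAN 4, against 13.1% of all 9523 genes. The 10 were Tmsb10, Arpc4, Hcls1, Capzb, Lcp1, Fermt3, Msn, Rac1, Rac2 and Rhog. Myh9 alone lay more than 1 unit higher (2.78%, against 13.9% of all genes). Of the 64 probes, 23 lay lower in this way (35.9%, against 15.8% of all 13945 probes) and 1 higher (1.56%, against 12.8%). Probes of 1 gene also parted: in 7 of the 10 genes with 2 or more probes (Actb, Tmsb10, Pfn1, Arpc1b, Coro1a, Capzb and Elmo1), the difference between a pair of probes on both TAN 1 and TAN 2 was more than 1 unit away from its SM16 mean, as it was in 49.8% of 2522 genes. The labels give no measure of RNA quality or amplification for TAN 1 and TAN 2, and the part of either in the large TAN differences was not tested. Counts for TAN over a whole list of genes are therefore given with all 3 TAN arrays and again with TAN 4 as the only TAN array, whose spread is then taken from the other groups. Differences of single genes are given again where TAN 4 alone ended the call or moved the value by over 1.5 times.

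**Figure D1:**
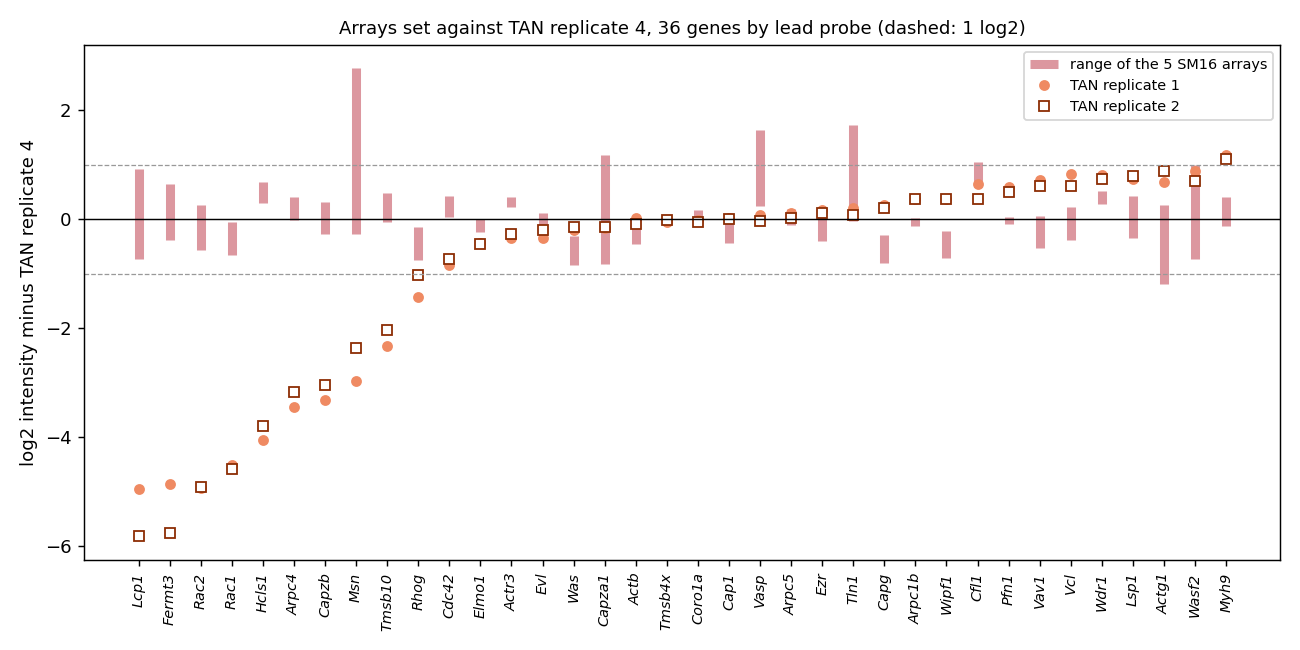
Log2 intensity of TAN replicates 1 and 2 minus that of TAN replicate 4 for the lead probe of each measured gene, with the range of the 5 SM16 arrays minus TAN replicate 4 beside it. The low points belong to Tmsb10, Arpc4, Hcls1, Capzb, Lcp1, Fermt3, Msn, Rac1, Rac2 and Rhog, and Myh9 is the point above 1.

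In TAN most of the actin genes were lower than in naive neutrophils. With all TAN arrays, 4 of 36 genes were higher (Evl, Actg1, Cfl1, Vav1) and 29 lower than in NN, while 69.0% of all genes were called, 39.1% higher and 29.9% lower. The median difference of the 36 genes was −1.09, against 0.19 over all genes. Median scaling gave 4 higher and 22 lower, with a median of −0.92 against 0.08 over all genes. The share of all genes called was not counted under that scaling. With TAN 4 alone 4 genes were higher (Evl, Tmsb10, Cfl1, Vav1) and 23 lower, and 49.0% of all genes were called, 25.5% higher and 23.5% lower.

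SM16 also had more genes lower than higher against NN. There 3 genes were higher (Evl, Tmsb10, Cfl1) and 22 lower, where 64.1% of all genes were called, 32.7% higher and 31.5% lower. The median difference of the 36 genes was −0.80, against 0.02 over all genes. Without TAN 1 and TAN 2 in the shared estimate of spread the counts were 3 and 27, with 35.4% of all genes higher and 34.1% lower (69.5% called). Every comparison with NN uses the same 7 NN arrays, so these counts are not independent of each other.

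In splenic G-MDSC the genes were split, and how depended on the scaling. Against NN, 6 genes were higher (Evl, Actg1, Tmsb10, Vav1, Wipf1, Cfl1) and 11 lower, with 45.2% of all genes called, 22.1% higher and 23.1% lower. Median scaling in place of quantile normalization gave 9 higher and 2 lower, and moved the median of all genes to 0.21, against −0.03 with quantile normalization. Capg and Vcl were the 2 genes lower under both scalings. With only NN 6 and 7, the naive arrays of the same low-signal set, 3 were higher and 8 lower. The share of all genes called was not counted under median scaling or with NN 6 and 7 alone.

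**Figure D2:**
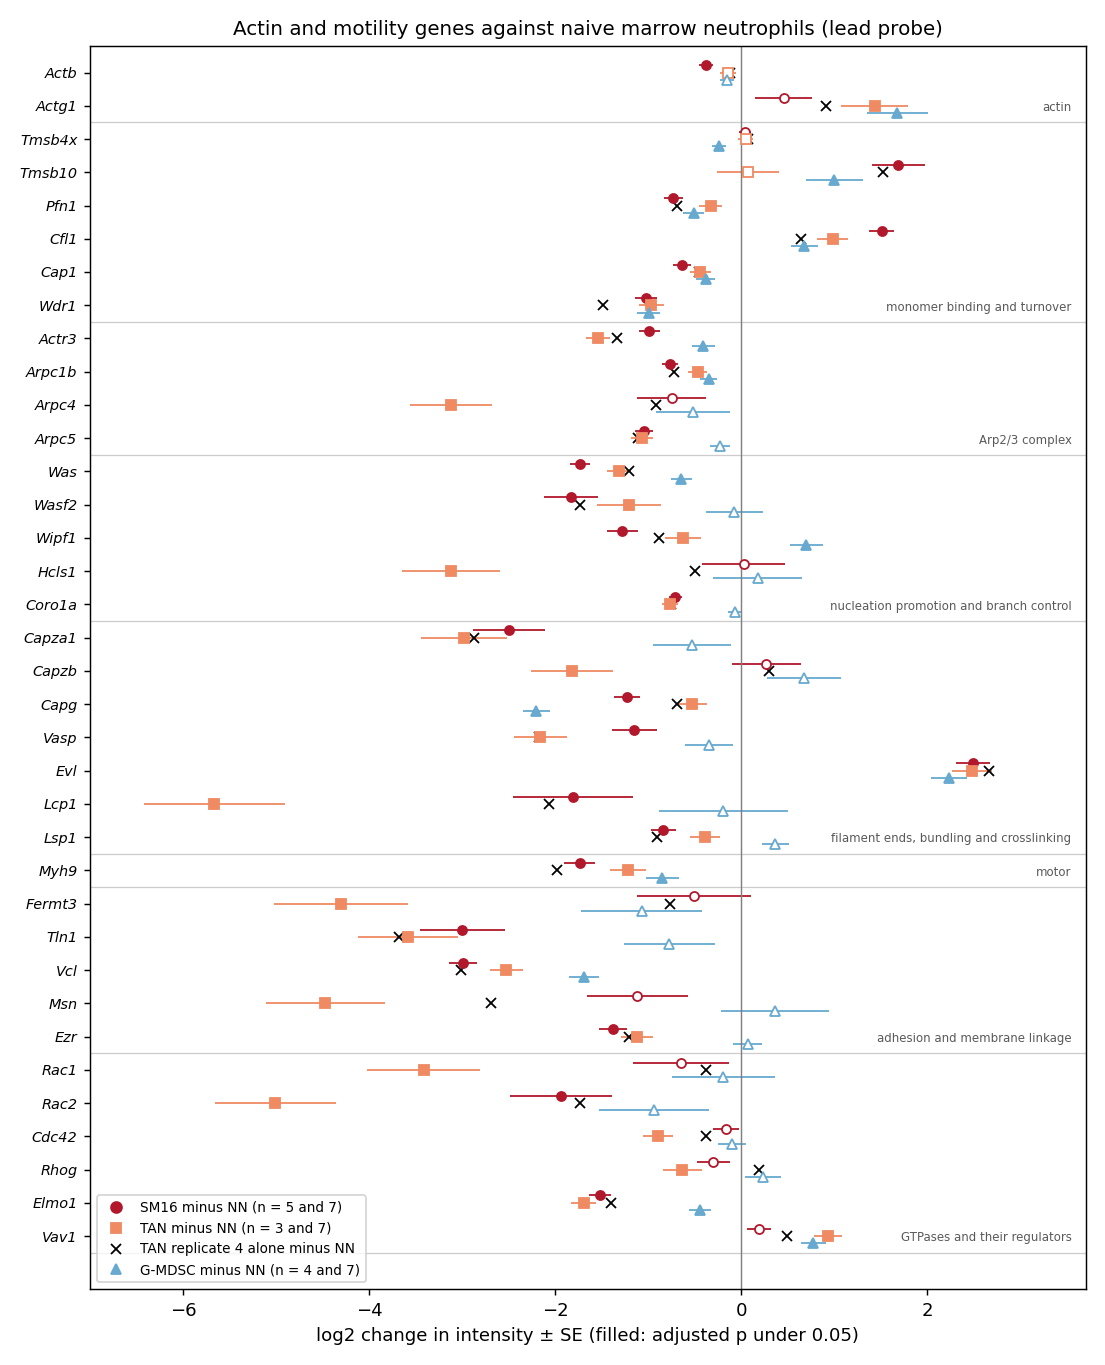
Log2 difference from NN for each measured gene by its lead probe, grouped by role, for SM16 (circles), TAN (squares), TAN replicate 4 alone (crosses) and G-MDSC (triangles), with bars for the SE. Circles, squares and triangles are filled where the adjusted p was under 0.05, and crosses show no call. Most circles, squares and crosses lie below 0, and Evl lies above 2 in every comparison.

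Of the 2 cytoplasmic actins, Actb, the main actin of leukocytes, was nearly level by its lead probe. The values were 15.57, 15.50, 15.22, 15.32 and 15.40 in SM16, 15.69, 15.57 and 15.66 in TAN, 15.55, 15.73, 15.55 and 15.65 in G-MDSC, and 15.68 to 15.88 (median 15.79) in NN. All lay in a band near the brightest signals of the arrays. SM16 fell by 0.38 ± 0.07 relative to NN (adjusted p = 0.000123), and the TAN difference from NN was −0.14 ± 0.08 (adjusted p = 0.15).

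The other Actb probes did not follow the lead probe. Probe ILMN_2588055 read 10.97, 7.08, 15.90, 13.95 and 8.89 in SM16, 13.60, 13.84 and 15.85 in TAN, 13.14, 4.99, 4.87 and 4.93 in G-MDSC, and 4.62 to 8.22 (median 6.22) in NN. Probe ILMN_2846865 gave nearly the same pattern, with 11.32, 7.37, 15.97, 14.24 and 9.33 in SM16, 13.93, 14.12 and 15.86 in TAN, 13.47, 4.55, 4.71 and 4.96 in G-MDSC, and 4.77 to 8.54 (median 6.38) in NN. Both were high in all TAN arrays, low in NN, and high in G-MDSC 1 only among the G-MDSC arrays, and they spread over the 5 SM16 arrays. Relative to NN they rose by 8.33 ± 1.68 and 8.32 ± 1.72 in TAN (adjusted p = 0.00023 and 0.000283), and by 9.76 and 9.54 with TAN 4 alone (adjusted p = 0.00553 and 0.00755).

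Another Actb probe went the other way. ILMN_2617433 read 14.01, 13.92, 10.53, 12.38 and 13.20 in SM16, 10.27, 10.14 and 12.49 in TAN, 12.90, 14.88, 15.03 and 14.50 in G-MDSC, and 14.38 to 15.42 (median 15.06) in NN. It was lowest on TAN 1, TAN 2 and SM16 3, and TAN 4 was above TAN 1 and TAN 2 by all 3 of these probes. It fell by 4.06 ± 0.62 in TAN relative to NN (adjusted p = 1.09e-05), and by 2.53 with TAN 4 alone (adjusted p = 0.023). The fifth probe, ILMN_1377923, differed from NN by 0.17 ± 0.25 in TAN (adjusted p = 0.569) and by 0.03 ± 0.21 in SM16 (adjusted p = 0.899). All 5 Actb probes are annotated to 1 transcript accession, so the annotation does not separate them by isoform, and no single Actb value describes these arrays.

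**Figure D3:**
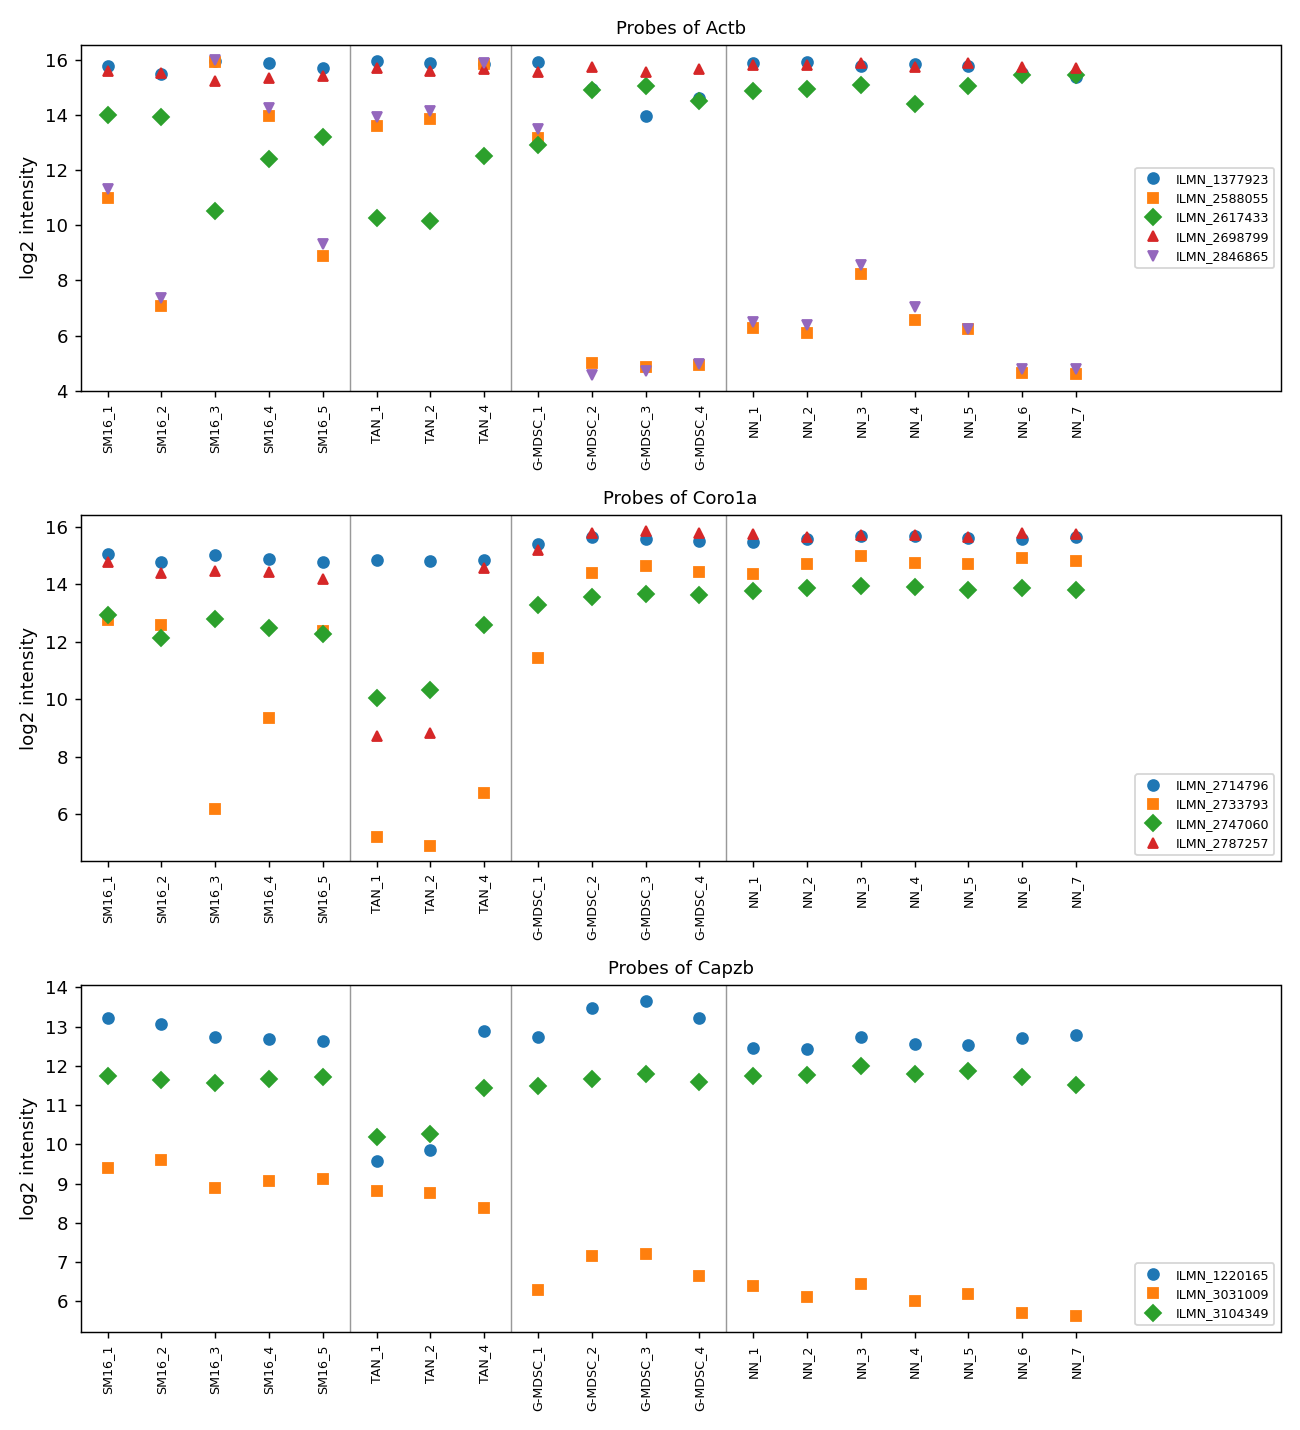
Log2 intensity on each of the 19 arrays, in the order SM16, TAN, G-MDSC, NN, for each probe of Actb, Coro1a and Capzb, 1 panel per gene. Among the Actb probes, ILMN_2588055 and ILMN_2846865 are high on the TAN arrays, on some SM16 arrays and on G-MDSC replicate 1. Coro1a ILMN_2733793 is low on those arrays, and Capzb ILMN_3031009 is higher in SM16 and TAN while the other Capzb probes dip on TAN replicates 1 and 2.

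Actg1, the second cytoplasmic actin, was dim on these arrays. It read 6.13, 5.12, 6.56, 5.85 and 5.57 in SM16, 7.0, 7.18 and 6.30 in TAN, 6.95, 7.23, 7.09 and 7.0 in G-MDSC, and 4.64 to 6.53 (median 5.15) in NN, and was detected on 4, 3, 4 and 2 arrays of those groups. TAN and G-MDSC stood above most SM16 and NN arrays, with TAN 4 inside the NN range. It rose by 1.43 ± 0.36 in TAN relative to NN (adjusted p = 0.00162), and the difference was 0.91 with TAN 4 alone (adjusted p = 0.186). In G-MDSC it rose by 1.68 ± 0.33 relative to NN (adjusted p = 0.000302), and the difference was 0.69 against NN 6 and 7 alone (adjusted p = 0.197). SM16 averaged 5.85 and NN 5.39, a difference that was not called. Against the NN arrays outside the low-signal set, SM16 was 0.85 higher (adjusted p = 0.00521). Under median scaling the SM16 difference from NN was 0.34 (adjusted p = 0.378).

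Actg1 is also one of 3 listed genes whose promoter holds a CArG box, the site bound by serum response factor, which in many cells links actin monomer levels to transcription of actin genes. The box was searched by name, with no mismatch, in 250 bases before to 50 after the start of each gene in RefSeq (GRCm38.p6). The motif is its own reverse complement, so both strands were covered. It was found in 3 of the 39 listed genes that the promoter table holds (7.69%), against 488 of 27025 genes (1.81%). The table holds no promoter for Actb, Rac1, Rac2 or Lsp1. The windows are shown because the 3 genes moved differently on the arrays, and capitals mark the box:
Actg1: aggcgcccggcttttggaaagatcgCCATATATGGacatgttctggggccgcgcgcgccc
Arpc4: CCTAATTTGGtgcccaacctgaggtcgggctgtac
Vcl: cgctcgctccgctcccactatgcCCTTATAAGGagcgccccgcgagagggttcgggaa
The Actg1 window is chr11:120348551-120348610 on the minus strand, with the box at −90 to −81 from the start. The Arpc4 window is chr6:113377863-113377897 on the plus strand, with the box at −250 to −241. The Vcl window is chr14:20929148-20929205 on the plus strand, with the box at −227 to −218. In TAN relative to NN, Actg1 rose and Arpc4 and Vcl fell, with values given beside each gene. A match describes the sequence only.

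Among proteins that bind monomers or turn filaments over, cofilin Cfl1, which severs old filaments, was higher in all tumour-side groups. It read 9.76, 9.98, 10.07, 9.63 and 10.08 in SM16, 9.68, 9.41 and 9.03 in TAN, 9.09, 9.33, 9.09 and 8.77 in G-MDSC, and 8.19 to 8.63 (median 8.35) in NN. No array of SM16, TAN or G-MDSC overlapped NN. Cfl1 rose by 1.51 ± 0.14 in SM16 (adjusted p = 9.51e-09), by 0.98 ± 0.16 in TAN (adjusted p = 2.79e-05) and by 0.68 ± 0.15 in G-MDSC (adjusted p = 0.000887), each relative to NN. The rise of TAN 4 alone was 0.64 (adjusted p = 0.0225).

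Cfl1 was also higher in SM16 than in TAN, by 0.53 ± 0.17 (adjusted p = 0.0187), with 1 SM16 array inside the TAN range. Against TAN 4 alone it was 0.87 ± 0.22 (adjusted p = 0.0386), the only call that remained among the 36 genes. Under median scaling the difference was 0.44 (adjusted p = 0.119).

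The beta-thymosin Tmsb10, which holds actin monomers, rose in SM16. By the lead probe it read 14.20, 14.22, 14.07, 14.32 and 14.61 in SM16, 11.80, 12.09 and 14.12 in TAN, 14.27, 13.30, 13.11 and 13.71 in G-MDSC, and 12.40 to 12.96 (median 12.60) in NN. TAN 4 stood with SM16, and TAN 1 and TAN 2 below every NN array. The SM16 difference from NN was 1.69 ± 0.29 (adjusted p = 3.47e-05), that of TAN 0.07 ± 0.34 (adjusted p = 0.859), and that of TAN 4 alone 1.53 (adjusted p = 0.000298). In G-MDSC the rise was 1.0 ± 0.31 (adjusted p = 0.0121), and against NN 6 and 7 alone the difference was 1.02 (adjusted p = 0.162).

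The other Tmsb10 probes disagreed on TAN 1 and TAN 2. ILMN_1225332 read 4.48, 4.84 and 7.03 in TAN, against 5.19 to 5.43 in NN. ILMN_3145331 read 13.36, 13.12 and 12.21 in TAN, against 10.17 to 10.87 in NN, so that by this probe TAN 1 and TAN 2 were above TAN 4 and every TAN array was above every NN array. All 3 probes rose in SM16 relative to NN, by 1.69, 1.99 and 1.75.

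Tmsb4x, the main beta-thymosin of blood cells, was near the top of the scale in every group. It read 15.84, 15.72, 15.83, 15.72 and 15.84 in SM16, 15.77, 15.81 and 15.82 in TAN, 15.47, 15.60, 15.53 and 15.43 in G-MDSC, and 15.54 to 15.87 (median 15.81) in NN. SM16 and TAN stood above all G-MDSC arrays, by 0.28 ± 0.08 (adjusted p = 0.00453) and 0.29 ± 0.09 (adjusted p = 0.00872), and both calls ended in other settings. With the low-signal set as a block the differences were 0.06 in SM16 (adjusted p = 0.725) and 0.06 in TAN (adjusted p = 0.684). Under median scaling they were −0.05 in SM16 (adjusted p = 0.705) and 0.23 in TAN (adjusted p = 0.161). Taking TAN 4 alone, the TAN difference was 0.31 (adjusted p = 0.0669).

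Profilin Pfn1, which feeds monomers to growing ends, depended on the probe. Its lead probe read 13.48, 13.37, 13.43, 13.35 and 13.34 in SM16, 14.02, 13.93 and 13.43 in TAN, 13.44, 13.64, 13.67 and 13.69 in G-MDSC, and 13.89 to 14.36 (median 14.17) in NN. ILMN_2673211 read 14.09, 13.87, 13.57, 13.60 and 13.63 in SM16, 7.64, 7.66 and 13.73 in TAN, 13.33, 14.04, 14.09 and 13.82 in G-MDSC, and 14.51 to 14.86 (median 14.75) in NN. On TAN 1 and TAN 2 the second probe was over 5 units below its SM16 values, while the lead probe was above SM16. The 2 probes are annotated to 1 transcript accession. Relative to NN the lead probe fell by 0.73 ± 0.11 in SM16 (adjusted p = 5.83e-06), by 0.69 with TAN 4 alone (adjusted p = 0.00168) and by 0.51 ± 0.11 in G-MDSC (adjusted p = 0.00104), where median scaling gave 0.06 (adjusted p = 0.833). With all TAN arrays it was −0.33 ± 0.13 (adjusted p = 0.0263), and 0.01 under median scaling (adjusted p = 0.978).

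Wdr1, a cofilin cofactor, fell in all 3 groups relative to NN. It read 12.80, 12.75, 12.56, 12.76 and 12.79 in SM16, 13.08, 13.01 and 12.28 in TAN, 12.71, 12.92, 12.66 and 12.76 in G-MDSC, and 13.60 to 13.93 (median 13.77) in NN, with no overlap with NN. The differences were −1.03 ± 0.11 in SM16 (adjusted p = 1.67e-07), −0.97 ± 0.14 in TAN (adjusted p = 3.66e-06) and −1.0 ± 0.12 in G-MDSC (adjusted p = 1.49e-06). The TAN value was −1.48 with TAN 4 alone (adjusted p = 8.28e-08), and under median scaling the G-MDSC value was −0.44 (adjusted p = 0.0812). Its second probe fell by 0.95, 1.24 and 1.08 in the same order. Cap1, which recycles monomers, fell by 0.64 ± 0.10 in SM16 (adjusted p = 7.48e-06) and by 0.44 ± 0.11 in TAN (adjusted p = 0.00192), where median scaling gave −0.06 (adjusted p = 0.748).

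All 4 measured subunits of the Arp2/3 complex were lower in TAN than in NN, as were 29 of the 36 genes and 29.9% of all genes. With TAN 4 alone the median difference of the 4 was −1.02, against 0.03 over all genes. In SM16 3 of the 4 were lower, as were 22 of the 36 genes and 31.5% of all genes. Actr3, one of the 2 actin-related proteins that start a branch, read 13.02, 13.09, 13.05, 12.90 and 13.05 in SM16, 12.33, 12.41 and 12.68 in TAN, 13.56, 13.65, 13.69 and 13.53 in G-MDSC, and 13.73 to 14.46 (median 13.88) in NN. No array of one group overlapped another group, in rising order TAN, SM16, G-MDSC and NN. It fell by 1.54 ± 0.13 in TAN (adjusted p = 5.21e-09) and by 0.99 ± 0.11 in SM16 (adjusted p = 1.94e-07) relative to NN. SM16 was 0.55 ± 0.14 above TAN (adjusted p = 0.00422), 0.34 above TAN 4 alone (adjusted p = 0.412), and 0.19 above TAN under median scaling (adjusted p = 0.485).

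Arpc5, a subunit that tunes the complex, read 14.65, 14.40, 14.70, 14.62 and 14.44 in SM16, 14.61, 14.52 and 14.50 in TAN, 15.08, 15.66, 15.40 and 15.40 in G-MDSC, and 15.42 to 15.83 (median 15.57) in NN. SM16 and TAN were close to each other and below every array of the other 2 groups. It fell by 1.05 ± 0.10 in SM16 (adjusted p = 1.49e-08) and by 1.07 ± 0.12 in TAN (adjusted p = 1.58e-07) relative to NN. Its second probe fell by 1.37 and 1.18, and the difference of TAN 4 alone was −1.19 by that probe (adjusted p = 0.0973).

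Arpc4, a core subunit of the complex, showed the TAN split. It read 12.40, 12.17, 11.99, 12.05 and 12.23 in SM16, 8.55, 8.83 and 12.00 in TAN, 12.18, 12.43, 12.47 and 12.50 in G-MDSC, and 12.84 to 13.04 (median 12.88) in NN. TAN 4 stood inside the SM16 range, and all TAN and SM16 arrays were below NN. The difference of TAN from NN was −3.12 ± 0.44 (adjusted p = 3.85e-06), and that of TAN 4 alone −0.92 (adjusted p = 7.4e-05).

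Arpc1b, the subunit that dominates in blood cells, fell by 0.77 ± 0.09 in SM16 relative to NN (adjusted p = 2.19e-07). In TAN its lead probe fell by 0.47 ± 0.10 (adjusted p = 0.000514), and the difference was −0.72 with TAN 4 alone (adjusted p = 0.00036) and −0.11 under median scaling (adjusted p = 0.569). Of its 3 probes, ILMN_1227836 read 12.01, 12.41 and 13.91 in TAN, against 14.17 to 14.68 in NN, while the lead probe read 14.36, 14.35 and 13.98 in TAN, against 14.51 to 14.81 in NN. ILMN_2860479 read 13.10, 13.05 and 12.82 in TAN, against 13.51 to 13.63 in NN. One probe of 3 thus carried the low values of TAN 1 and TAN 2.

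Of 5 genes whose proteins switch the Arp2/3 complex on or act on its branches, 4 were lower in SM16 than in NN and 5 in TAN. Of all genes, 31.5% were lower in SM16 and 29.9% in TAN. Under median scaling the TAN difference of Wipf1 from NN was −0.56 (adjusted p = 0.0882). With TAN 4 alone the median difference of the 5 from NN was −0.88, against 0.03 over all genes. In G-MDSC 1 was higher and 1 lower, beside 22.1% and 23.1% of all genes. Was, the haematopoietic WASP protein, read 12.73, 12.71, 12.44, 12.46 and 12.20 in SM16, 12.85, 12.89 and 13.04 in TAN, 13.36, 13.67, 13.79 and 13.57 in G-MDSC, and 14.04 to 14.53 (median 14.21) in NN. The 4 groups lay in that order with no overlap. It fell by 1.73 ± 0.11 in SM16 (adjusted p = 3.66e-11) and by 1.31 ± 0.13 in TAN (adjusted p = 3.61e-08) relative to NN. In G-MDSC the fall was 0.64 ± 0.12 (adjusted p = 0.000151), with −0.06 under median scaling (adjusted p = 0.761) and −0.47 against NN 6 and 7 alone (adjusted p = 0.054). SM16 was 0.42 ± 0.14 below TAN (adjusted p = 0.0185), and 0.53 below TAN 4 alone (adjusted p = 0.173).

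Wipf1, the WASP-interacting protein, read 10.71, 10.92, 11.03, 11 and 10.54 in SM16, 11.62, 11.62 and 11.24 in TAN, 12.66, 13.01, 12.92 and 12.68 in G-MDSC, and 11.79 to 12.80 (median 12.03) in NN. SM16 was lowest, and G-MDSC overlapped the upper NN arrays. SM16 fell by 1.98 ± 0.19 relative to G-MDSC (adjusted p = 3.88e-08; 1.23 lower with the low-signal set as a block, adjusted p = 0.00019), by 1.28 ± 0.16 relative to NN (adjusted p = 1.02e-06) and by 0.65 ± 0.20 relative to TAN (adjusted p = 0.0147). Against TAN 4 alone the last difference was −0.40 (adjusted p = 0.559), and without TAN 1 or without TAN 2 it was −0.59 (adjusted p = 0.0774 and 0.0764). The rise in G-MDSC relative to NN, 0.70 ± 0.17 (adjusted p = 0.0029), was 0.16 against NN 6 and 7 alone (adjusted p = 0.621).

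Wasf2, a WAVE protein that acts downstream of Rac, fell by 1.83 ± 0.29 in SM16 (adjusted p = 1.57e-05) and by 1.21 ± 0.34 in TAN (adjusted p = 0.00421) relative to NN. Hcls1, the cortactin of blood cells, read 13.03, 12.73, 13.12, 12.98 and 12.93 in SM16, 8.37, 8.63 and 12.43 in TAN, 12.77, 13.09, 13.35 and 13.21 in G-MDSC, and 12.65 to 13.17 (median 13.03) in NN. Apart from the TAN arrays the groups overlapped. Hcls1 differed from NN by 0.03 in SM16 (adjusted p = 0.966), by −3.12 in TAN (adjusted p = 3.23e-05) and by −0.50 in TAN 4 alone (adjusted p = 0.0636). Hcls1 was 3.14 ± 0.55 higher in SM16 than in TAN (adjusted p = 0.00038) and 0.53 higher than in TAN 4 alone (adjusted p = 0.215). The TAN difference from G-MDSC was −3.29 ± 0.58 (adjusted p = 8.52e-05), and that of TAN 4 alone −0.68 (adjusted p = 0.0229).

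Coronin-1A (Coro1a), which binds filaments and the Arp2/3 complex in leukocytes, was lower in TAN and SM16 than in NN by each of its 4 probes, but by very unlike amounts. Every SM16 array lay below every NN array by each probe, and the SM16 difference was called by 3 of them. The lead probe read 15.03, 14.75, 15.01, 14.89 and 14.78 in SM16, 14.84, 14.81 and 14.85 in TAN, 15.41, 15.62, 15.58 and 15.50 in G-MDSC, and 15.47 to 15.68 (median 15.59) in NN. SM16 and TAN stood below every other array, by 0.71 ± 0.07 (adjusted p = 2.99e-08) and 0.77 ± 0.08 (adjusted p = 1.25e-07) relative to NN.

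Coro1a probe ILMN_2733793 read 12.77, 12.58, 6.18, 9.36 and 12.37 in SM16, 5.21, 4.92 and 6.73 in TAN, 11.42, 14.38, 14.61 and 14.42 in G-MDSC, and 14.36 to 14.99 (median 14.72) in NN. It was detected on 1 of 3 TAN arrays, so the size of the TAN difference is not exact. The differences from NN were −9.12 ± 1.02 in TAN (adjusted p = 2.11e-07) and −4.09 ± 0.87 in SM16 (adjusted p = 0.000373). The SM16 arrays that were lowest by this probe, replicates 3 and 4, and G-MDSC 1 were those highest by the Actb probes ILMN_2588055 and ILMN_2846865.

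Coro1a probe ILMN_2787257 read 14.78, 14.38, 14.46, 14.43 and 14.17 in SM16, 8.72, 8.83 and 14.58 in TAN, 15.20, 15.78, 15.86 and 15.79 in G-MDSC, and 15.64 to 15.79 (median 15.70) in NN. Probe ILMN_2747060 read 12.93, 12.11, 12.80, 12.48 and 12.25 in SM16, 10.06, 10.33 and 12.57 in TAN, 13.26, 13.55, 13.65 and 13.62 in G-MDSC, and 13.77 to 13.94 (median 13.85) in NN. By both, TAN 1 and TAN 2 were far below TAN 4, which stood within the SM16 range. The falls of TAN relative to NN were 5.00 and 2.86 (adjusted p = 9.58e-06 and 4.35e-07), and those of TAN 4 alone 1.13 and 1.27 (adjusted p = 0.000138 and 0.000112). All 4 probes are annotated to 1 transcript accession.

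Proteins at filament ends and in bundles held the one gene that rose most evenly. Evl, an Ena/VASP protein that lengthens filaments at the leading edge, read 9.22, 9.57, 9.23, 9.74 and 9.48 in SM16, 9.28, 9.42 and 9.62 in TAN, 9.66, 9.0, 8.75 and 9.36 in G-MDSC, and 6.44 to 7.47 (median 6.92) in NN. Every array of the first 3 groups stood above every NN array, and those 3 groups overlapped each other. Evl rose by 2.49 ± 0.18 in SM16 (5.62-fold, adjusted p = 3.18e-10), by 2.48 ± 0.21 in TAN (5.59-fold, adjusted p = 5.52e-09) and by 2.23 ± 0.19 in G-MDSC (4.70-fold, adjusted p = 1.32e-08), each relative to NN. SM16 and TAN differed by 0.01 ± 0.23 (adjusted p = 0.982).

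Vasp, the founding member of the Ena/VASP family, moved the other way. It read 7.48, 7.13, 6.09, 6.43 and 7.22 in SM16, 5.92, 5.82 and 5.84 in TAN, 6.80, 7.89, 8.13 and 7.89 in G-MDSC, and 7.71 to 8.32 (median 8.01) in NN, and was detected on 1 of 3 TAN arrays. The TAN arrays lay close together and below all SM16 arrays. SM16 replicates 3 and 4 were the lowest SM16 arrays, and G-MDSC 1 was the lowest G-MDSC array. That order also held for Capza1, Lcp1, Tln1, Msn and Coro1a probe ILMN_2733793. Its part in the Vasp difference between SM16 and TAN was not tested. Vasp fell by 2.16 ± 0.28 in TAN (adjusted p = 1.53e-06) and by 1.15 ± 0.24 in SM16 (adjusted p = 0.000305) relative to NN. SM16 was 1.01 ± 0.30 above TAN (adjusted p = 0.0105) and 1.03 above TAN 4 alone (adjusted p = 0.242), and a model of SM16 and TAN without the other groups gave an adjusted p of 0.059.

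Capg, which caps filament ends and is known from macrophages and neutrophils, was lowest in the spleen. It read 11.44, 11.81, 11.68, 11.68 and 11.96 in SM16, 12.52, 12.46 and 12.25 in TAN, 11.27, 10.49, 10.28 and 10.90 in G-MDSC, and 12.79 to 13.04 (median 12.94) in NN. No array of one group overlapped another group, in the order G-MDSC, SM16, TAN, NN. G-MDSC fell by 2.21 ± 0.14 relative to NN (4.61-fold, adjusted p = 2.22e-10), SM16 by 1.23 ± 0.14 (adjusted p = 1.37e-07) and TAN by 0.53 ± 0.16 (adjusted p = 0.00631). Under median scaling the TAN difference was −0.34 (adjusted p = 0.14).

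SM16 was 0.70 ± 0.17 below TAN for Capg (adjusted p = 0.00314) and 0.54 below TAN 4 alone (adjusted p = 0.277). Its second probe, annotated to another accession, fell by 0.98 ± 0.20 in SM16 relative to TAN (adjusted p = 0.000926; −0.53 against TAN 4 alone, adjusted p = 0.297) and by 1.77 ± 0.17 in G-MDSC relative to NN (adjusted p = 4.61e-08). In TAN that probe differed from NN by 0.15 ± 0.19 (adjusted p = 0.472).

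The 2 subunits of capping protein behaved unlike each other. Capza1 read 7.49, 7.74, 5.74, 6.58 and 7.18 in SM16, 6.41, 6.43 and 6.56 in TAN, 7.22, 9.69, 9.77 and 8.97 in G-MDSC, and 8.92 to 10.19 (median 9.37) in NN. SM16 and TAN were below all NN arrays, as was G-MDSC 1. Capza1 fell by 2.50 ± 0.39 in SM16 (adjusted p = 1.4e-05) and by 2.98 ± 0.46 in TAN (adjusted p = 1.31e-05) relative to NN.

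Of the 3 Capzb probes, the lead probe and ILMN_3104349 dipped on TAN 1 and TAN 2, and ILMN_3031009 did not. The lead probe read 13.22, 13.05, 12.75, 12.68 and 12.63 in SM16, 9.59, 9.86 and 12.90 in TAN, 12.73, 13.47, 13.66 and 13.21 in G-MDSC, and 12.42 to 12.78 (median 12.54) in NN. ILMN_3031009 read 9.40, 9.61, 8.88, 9.06 and 9.11 in SM16, 8.81, 8.75 and 8.37 in TAN, 6.28, 7.15, 7.21 and 6.64 in G-MDSC, and 5.63 to 6.43 (median 6.12) in NN. ILMN_3104349 read 11.57 to 11.73 in SM16, 10.19, 10.28 and 11.44 in TAN, 11.47 to 11.80 in G-MDSC, and 11.52 to 11.99 in NN.

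By ILMN_3031009 all TAN and SM16 arrays were above all others. It rose by 3.14 ± 0.20 in SM16 (adjusted p = 3.15e-11), by 2.58 ± 0.23 in TAN (adjusted p = 1.05e-08) and by 2.30 with TAN 4 alone (adjusted p = 2.98e-05), relative to NN. The lead probe differed from NN by 0.27 ± 0.37 in SM16 (adjusted p = 0.552), fell by 1.82 ± 0.44 in TAN (adjusted p = 0.00123), and differed by 0.30 with TAN 4 alone (adjusted p = 0.355). The 3 probes are annotated to 2 transcript accessions, with ILMN_3031009 and ILMN_3104349 on the same one, so the rise of ILMN_3031009 does not follow the accessions.

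Plastin-2 (Lcp1), the filament bundler of leukocytes, was split between the TAN arrays. It read 12.79, 12.60, 11.13, 11.96 and 12.11 in SM16, 6.90, 6.03 and 11.86 in TAN, 12.72, 14.08, 14.17 and 13.97 in G-MDSC, and 13.61 to 14.22 (median 13.87) in NN. TAN 4 stood inside the SM16 range and below all NN and G-MDSC arrays. The TAN difference from NN was −5.67 ± 0.76 (adjusted p = 2.19e-06), that of TAN 4 alone −2.07 (4.20-fold, adjusted p = 0.00145), and that of SM16 −1.81 ± 0.64 (adjusted p = 0.0196). Against the NN arrays outside the low-signal set the SM16 difference was −1.71 (adjusted p = 0.057). Relative to G-MDSC, TAN was 5.47 ± 0.84 lower (adjusted p = 2.08e-05) and TAN 4 alone 1.88 lower (adjusted p = 0.00602).

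Lsp1, a leukocyte actin-binding protein, was highest in the spleen. It read 14.71, 14.31, 14.99, 14.90 and 14.23 in SM16, 15.31, 15.36 and 14.56 in TAN, 15.80, 15.88, 15.83 and 15.81 in G-MDSC, and 15.41 to 15.54 (median 15.45) in NN. SM16 and TAN were below every NN array and G-MDSC above every NN array. SM16 fell by 1.20 ± 0.16 relative to G-MDSC (adjusted p = 2.41e-06) and by 0.84 ± 0.14 relative to NN (adjusted p = 2.14e-05). The G-MDSC difference from NN was 0.36 ± 0.15 (adjusted p = 0.0503), with an adjusted p of 0.0145 once TAN 1 and TAN 2 were left out. TAN was 0.39 ± 0.16 below NN (adjusted p = 0.0392), and 0.90 below NN with TAN 4 alone (adjusted p = 0.00109). With the low-signal set as a block the TAN difference was −0.38 (adjusted p = 0.0618), and under median scaling −0.13 (adjusted p = 0.609).

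The motor protein Myh9, the heavy chain of non-muscle myosin IIA that contracts the cell rear, fell in every group. It read 12.15, 12.20, 12.07, 12.06 and 11.67 in SM16, 12.96, 12.90 and 11.79 in TAN, 12.89, 13.13, 12.69 and 12.97 in G-MDSC, and 13.56 to 14.00 (median 13.84) in NN, with no overlap with NN. The differences from NN were −1.74 ± 0.17 in SM16 (adjusted p = 1.61e-08), −1.22 ± 0.19 in TAN (adjusted p = 1.83e-05) and −0.85 ± 0.18 in G-MDSC (adjusted p = 0.000573). Under median scaling the G-MDSC value was −0.27 (adjusted p = 0.395). With TAN 4 alone the TAN value was −1.98 (adjusted p = 1.98e-07).

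**Figure D4:**
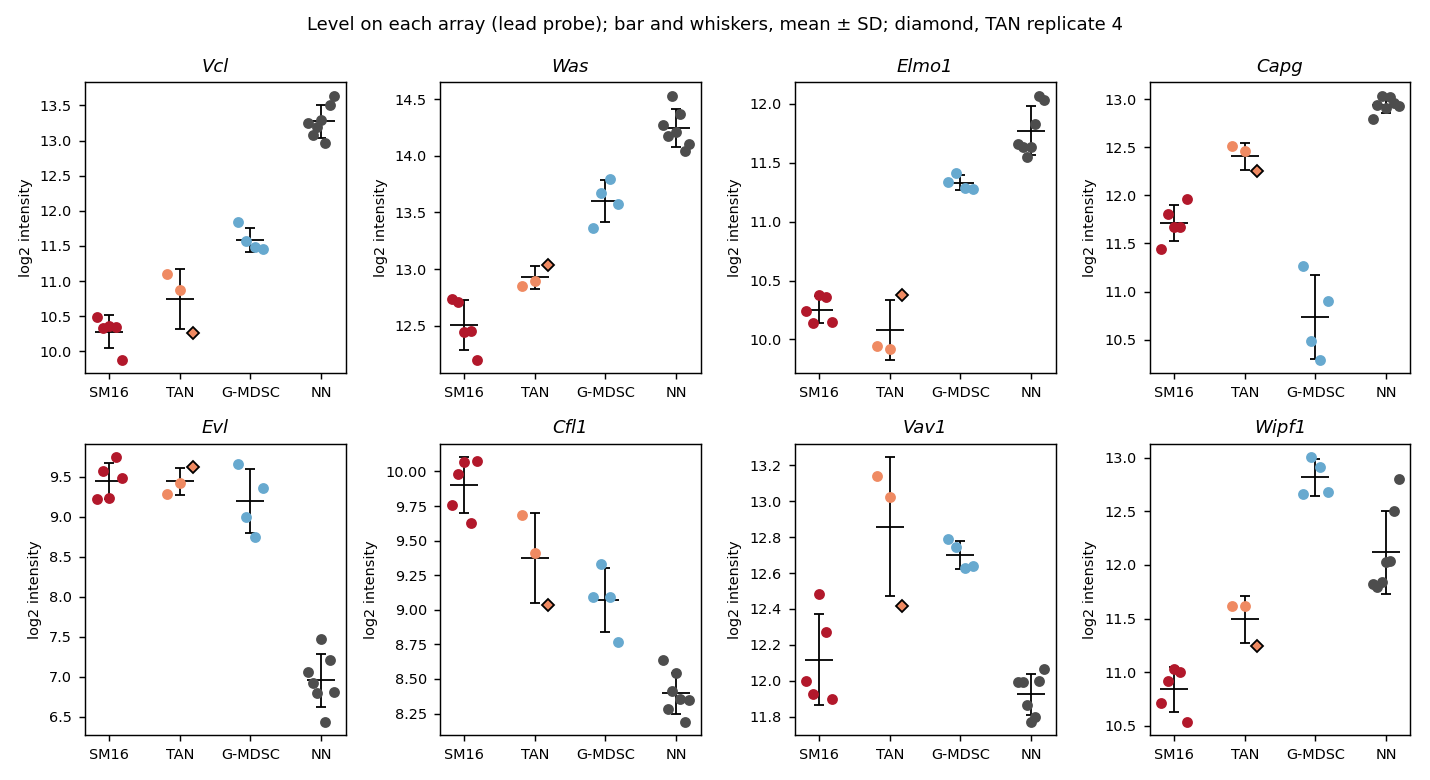
Log2 intensity of the lead probes of Vcl, Was, Elmo1, Capg, Evl, Cfl1, Vav1 and Wipf1, 1 point per array, with SM16, TAN, G-MDSC and NN side by side. Bars and whiskers give each group's mean ± SD, and diamonds mark TAN replicate 4. Vcl, Was, Elmo1 and Capg are lower in the first 3 groups than in NN, and Evl and Cfl1 are higher.

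All 5 genes that tie actin to integrins or to the membrane were lower in TAN than in NN, as were 29 of the 36 genes and 29.9% of all genes. With TAN 4 alone the median difference of the 5 was −2.69, the value of Msn, against 0.03 over all genes. By Msn and Tln1, SM16 replicate 3 and G-MDSC replicate 1 were also the lowest arrays of their groups. TAN 4 read close to SM16 replicate 3 by Actb probe ILMN_2588055 (15.85 and 15.90). Whether TAN 4 shares a technical difference with those arrays was not tested. In SM16 3 of 5 were lower, as were 22 of the 36 genes and 31.5% of all genes. Vinculin (Vcl), which strengthens adhesions under force, read 10.49, 10.34, 10.36, 10.35 and 9.87 in SM16, 11.10, 10.88 and 10.26 in TAN, 11.84, 11.57, 11.48 and 11.46 in G-MDSC, and 12.97 to 13.64 (median 13.25) in NN. Every array of the first 3 groups was below every NN array. Vcl fell by 2.99 ± 0.15 in SM16 (7.95-fold, adjusted p = 1.03e-12), by 2.53 ± 0.18 in TAN (5.77-fold, adjusted p = 2.56e-10) and by 1.69 ± 0.16 in G-MDSC (3.22-fold, adjusted p = 4.42e-08). For TAN 4 alone the fall was 3.01 (adjusted p = 6.27e-09).

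Megakaryocytes and platelets also carry much vinculin, and platelet and megakaryocyte markers summed to 11500 to 17800 in SM16, 5370 to 7790 in TAN, 201 to 280 in G-MDSC and 18200 to 41700 in NN. Of the 7 measured markers, 4 were detected on every SM16 array, 4 on every TAN array, 3 on every G-MDSC array and 6 on every NN array. Gp1bb and Tubb1 were detected on no array of SM16, TAN or G-MDSC. G-MDSC had the lowest sum of these markers, and Vcl in SM16 fell by 1.30 ± 0.17 relative to G-MDSC (adjusted p = 2.79e-06). Their part in the differences of Vcl was not tested.

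Talin (Tln1), which switches integrins on, was near background in TAN. It read 4.92, 6.25, 4.49, 4.75 and 5.55 in SM16, 4.72, 4.59 and 4.51 in TAN, 5.04, 8.14, 8.26 and 8.22 in G-MDSC, and 7.51 to 8.74 (median 8.29) in NN. It was detected on 2 of 5 SM16 arrays, 0 of 3 TAN arrays, 3 of 4 G-MDSC arrays and 7 of 7 NN arrays. Since no TAN array measured it, the difference of TAN from NN is given as a bound, at least 5.03-fold lower (adjusted p = 8.66e-06), with each TAN array raised to its lowest detected signal. The SM16 difference from NN was −3.0 ± 0.46 (adjusted p = 9.37e-06), and its size is not exact, since 3 of the 5 SM16 arrays did not detect the probe.

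Kindlin-3 (Fermt3), the integrin activator of blood cells, read 11.96, 11.70, 10.92, 11.59 and 11.65 in SM16, 6.45, 5.55 and 11.31 in TAN, 10.61, 10.99, 11.25 and 11.15 in G-MDSC, and 11.61 to 12.52 (median 12.07) in NN. TAN 4 was within the SM16 range and TAN 1 and TAN 2 over 4 units below every other array. The TAN difference from NN was −4.30 ± 0.72 (adjusted p = 3.11e-05), and −0.76 with TAN 4 alone (adjusted p = 0.063). SM16 exceeded TAN by 3.80 ± 0.76 (adjusted p = 0.000932) and TAN 4 alone by 0.25 (adjusted p = 0.781).

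Moesin (Msn), which links filaments to the membrane, read 11.42, 11.87, 8.83, 10.28 and 10.95 in SM16, 6.12, 6.72 and 9.09 in TAN, 10.27, 12.75, 13.10 and 12.45 in G-MDSC, and 11.27 to 12.23 (median 11.90) in NN. TAN lay below NN with no overlap, by 4.47 ± 0.64 (adjusted p = 4.99e-06), and by 2.69 with TAN 4 alone (adjusted p = 0.0148). Relative to G-MDSC, TAN was 4.83 ± 0.71 lower (adjusted p = 1.27e-05) and TAN 4 alone 3.05 lower (adjusted p = 0.0116). SM16 differed from NN by −1.12 ± 0.54 (adjusted p = 0.0813), and replicate 3 was the lowest SM16 array.

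Ezrin (Ezr), its close relative, read 9.93, 9.54, 9.73, 9.46 and 9.39 in SM16, 9.95, 9.89 and 9.78 in TAN, 11.67, 11.06, 10.80 and 10.72 in G-MDSC, and 10.81 to 11.23 (median 11.05) in NN. SM16 and TAN were below all arrays of G-MDSC and NN. SM16 fell by 1.45 ± 0.17 relative to G-MDSC (adjusted p = 5.38e-07) and by 1.38 ± 0.15 relative to NN (adjusted p = 7.74e-08), and TAN by 1.12 ± 0.17 relative to NN (adjusted p = 1.19e-05).

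Among the GTPases, which tell the cell where to build filaments, Rac2, the Rac of neutrophils that also drives the oxidative burst, showed the split again. It read 13.36, 12.63, 13.17, 12.75 and 12.53 in SM16, 8.16, 8.19 and 13.10 in TAN, 13.62, 13.89, 14.00 and 14.05 in G-MDSC, and 14.53 to 14.99 (median 14.91) in NN. TAN 4 was inside the SM16 range, and SM16 and TAN were below every G-MDSC and NN array. The TAN difference from NN was −5.01 ± 0.65 (adjusted p = 1.48e-06), that of TAN 4 alone −1.73 (3.32-fold, adjusted p = 1.43e-05), and that of SM16 −1.94 ± 0.55 (3.83-fold, adjusted p = 0.00468). Relative to G-MDSC, TAN was 4.07 ± 0.72 lower (adjusted p = 8.97e-05) and TAN 4 alone 0.79 lower (adjusted p = 0.0207). SM16 exceeded TAN by 3.07 ± 0.69 (adjusted p = 0.00189), and differed from TAN 4 alone by −0.21 (adjusted p = 0.754).

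Rac1, the widely expressed Rac, read 9.18, 9.24, 8.64, 9.03 and 9.02 in SM16, 4.78, 4.70 and 9.29 in TAN, and 9.36 to 9.93 (median 9.69) in NN, and was detected on 1 of 3 TAN arrays. With TAN 4 alone it differed from NN by −0.38 (adjusted p = 0.246). Cdc42, which acts on WASP, read 11.74, 11.36, 11.49, 11.36 and 11.69 in SM16, 10.48, 10.59 and 11.32 in TAN, 11.28, 11.74, 11.71 and 11.64 in G-MDSC, and 11.51 to 11.88 (median 11.70) in NN. SM16 was above every TAN array, by 0.73 ± 0.17 (adjusted p = 0.00241), and by 0.21 with TAN 4 alone (adjusted p = 0.655). Rhog, which acts upstream of Rac, differed from NN by −0.63 ± 0.21 in TAN (adjusted p = 0.0123) and by 0.18 with TAN 4 alone (adjusted p = 0.491).

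Vav1, an exchange factor that loads Rac with GTP in blood cells, rose in TAN and G-MDSC. It read 12.00, 11.93, 12.48, 12.27 and 11.90 in SM16, 13.14, 13.02 and 12.42 in TAN, 12.79, 12.75, 12.63 and 12.64 in G-MDSC, and 11.77 to 12.07 (median 11.99) in NN. TAN and G-MDSC were above all NN arrays. The rise relative to NN was 0.93 ± 0.15 in TAN (adjusted p = 1.57e-05), 0.49 with TAN 4 alone (adjusted p = 0.0336) and 0.78 ± 0.13 in G-MDSC (adjusted p = 8.29e-05). The SM16 difference was 0.19 ± 0.12 (adjusted p = 0.195). SM16 fell by 0.74 ± 0.16 relative to TAN (adjusted p = 0.00121), and by 0.30 relative to TAN 4 alone (adjusted p = 0.454).

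Elmo1, a partner of Dock2 in Rac activation, fell by 1.52 ± 0.11 in SM16 (adjusted p = 4.94e-10) and by 1.69 ± 0.13 in TAN (adjusted p = 1.7e-09) relative to NN by its lead probe, ILMN_2658407. In G-MDSC the lead probe averaged 11.33, against 11.77 in NN. That difference was 0.02 under median scaling (adjusted p = 0.942) and −0.72 against NN 6 and 7 alone (adjusted p = 0.00363). Elmo1 had 12 probes, more than any other of the genes. The 11 others were dim, with group means of 4.86 to 6.21 in SM16, 4.55 to 6.08 in TAN, 6.64 to 7.33 in G-MDSC and 6.35 to 7.13 in NN. All of these except ILMN_2745055 averaged higher in G-MDSC than over all NN arrays, unlike the lead probe. On NN 7, of the same low-signal set as G-MDSC, each of the 11 read above its G-MDSC mean, as did the lead probe. On NN 6 all but ILMN_1250472 and ILMN_2672846 did so. By ILMN_2750265, for example, G-MDSC averaged 7.33, against 7.99 on NN 6 and 7.95 on NN 7. ILMN_1215781, ILMN_2672847 and ILMN_2726261 were more than 1 unit lower on both TAN 1 and TAN 2 than on TAN 4.

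Set directly against TAN, SM16 thus had 13 genes higher and 11 lower of 36, while 17.6% of all genes were higher and 27.8% lower (45.4% called). The median difference of the 36 genes was 0.04, against −0.21 over all genes. With TAN 4 as the only TAN array 1 gene was higher and 0 lower, while 1.80% of all genes were higher and 2.13% lower (3.93% called). Groups were apart with every array for 4 genes higher (Hcls1, Vasp, Cdc42, Actr3) and 3 lower (Capg, Wipf1, Was) in SM16, where 7.43% and 16.2% of all genes (23.6% in both directions) were so. The 8 largest rises by the lead probe, Lcp1, Fermt3, Msn, Hcls1, Rac2, Rac1, Arpc4 and Capzb, were all genes in which TAN 1 and TAN 2 lay more than 1 unit below TAN 4. Median scaling gave 11 higher and 10 lower, and the share of all genes was not counted there. It ended the calls of Actg1, Actr3, Cfl1 and Vcl, and Cap1 was called lower. It moved the SM16 differences from TAN to −0.81 for Was, −1.05 for Capg and −1.14 for Vav1. In a model without the other groups 9 genes were higher and 3 lower, and the share of all genes was not counted in that model. The size of the SM16 effect on these genes therefore differs with the TAN arrays used, and a missing call with 1 TAN array does not show that SM16 and TAN are alike.

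Against splenic neutrophils, both tumour groups were mostly lower. TAN had 2 genes higher (Capg, Tmsb4x) and 24 lower than G-MDSC, with 62.9% of all genes called, 37.4% higher and 25.5% lower. With TAN 4 alone the counts were 1 and 19, with 23.1% and 19.8% of all genes. SM16 had 3 higher (Capg, Cfl1, Tmsb4x) and 21 lower, with 61.9% of all genes called, 32.4% higher and 29.5% lower. Median scaling gave 0 higher and 27 lower in SM16, and moved the median of all genes to −0.28. No SM16 or TAN array belongs to the low-signal set, and with that set as a block, which rests on the NN arrays alone, SM16 had 2 higher and 12 lower. The share of all genes called was not counted under median scaling or with the block. Capg rose by 1.67 ± 0.18 in TAN (adjusted p = 2.72e-07) and by 0.98 ± 0.16 in SM16 (adjusted p = 2.57e-05) relative to G-MDSC, where median scaling gave 0.32 in SM16 (adjusted p = 0.162).

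A wider list of 84 other actin and motility genes had 66 measured members. In TAN 14 were higher and 35 lower than in NN, where 39.1% of all genes were higher and 29.9% lower. With TAN 4 alone 10 were higher and 36 lower, beside 25.5% and 23.5% of all genes. In SM16 9 were higher and 40 lower than in NN, beside 32.7% and 31.5% of all genes, with a median of −0.59 against 0.02 over all genes. G-MDSC had 14 higher and 23 lower than NN, beside 22.1% and 23.1%. SM16 against TAN gave 9 higher and 25 lower, beside 17.6% and 27.8%, with a median of −0.23 against −0.21 over all genes. Against TAN 4 alone SM16 had 1 higher and 4 lower, beside 1.80% and 2.13%.

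Of these wider genes, the MARCKS-related Marcksl1, which binds actin at the membrane, rose by 1.96 in SM16 (adjusted p = 2.02e-11) and by 2.03 in TAN (adjusted p = 2.3e-10) relative to NN, with means of 13.84 ± 0.20 in SM16, 13.91 ± 0.15 in TAN and 11.88 ± 0.23 in NN (SD). Limk1, the kinase that inactivates cofilin, averaged 8.95 ± 0.35 in SM16, 8.46 ± 0.54 in TAN and 6.77 ± 0.29 in NN, and rose by 2.18 in SM16 (adjusted p = 2.21e-08) and by 1.69 in TAN (adjusted p = 7.18e-06) relative to NN, or by 1.08 with TAN 4 alone (adjusted p = 0.0142). Abi3, a WAVE complex component, averaged 8.89 ± 0.34 in SM16, 11.16 ± 0.83 in TAN, 10.71 ± 0.19 in G-MDSC and 8.31 ± 0.26 in NN. SM16 minus TAN was −2.26 for Abi3 (adjusted p = 1.6e-05), and −1.31 with TAN 4 alone (adjusted p = 0.0187). Abi3 rose by 2.85 in TAN (adjusted p = 1.2e-08; 1.89 with TAN 4 alone, adjusted p = 2.21e-05) and by 2.41 in G-MDSC (adjusted p = 6.53e-08) relative to NN.

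Others fell. Add3, an adducin that caps filaments under the membrane, averaged 10.40 ± 0.25 in SM16, 12.64 ± 0.09 in G-MDSC and 13.61 ± 0.12 in NN, and fell by 3.21 in SM16 relative to NN (adjusted p = 6.19e-14). Parvg, a parvin of integrin adhesions in blood cells, averaged 9.01 ± 0.39 in SM16 and 11.92 ± 0.28 in NN (adjusted p = 4.29e-12). Dstn, a relative of cofilin, averaged 12.92 ± 0.11 in G-MDSC and 14.38 ± 0.26 in NN (adjusted p = 7.53e-06). Paxillin (Pxn), an adaptor of integrin adhesions, averaged 10.53 ± 0.59 in SM16, 7.11 ± 2.22 in TAN and 12.01 ± 0.11 in NN, and fell by 4.90 in TAN relative to NN (adjusted p = 2.28e-07), and by 2.43 with TAN 4 alone (adjusted p = 5.2e-05).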

How the data were processed

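Total RNA of 19 neutrophil samples was hybridised to 1-colour Illumina arrays. Per the labels' protocols, an amplification kit made biotin-labelled RNA. Their treatment and extraction protocols concern fixed biopsies rather than neutrophils and were not used. The deposited table holds bead intensity on a linear scale and a detection p-value for each of 25697 probes, and GenomeStudio (version not stated) is named in the submitters' processing notes. The authors also deposited a normalized intensity table of 17004 probes, used here as an alternative only. The neqc function of limma 3.58.1 (R 4.3.3, offset 16) corrected background, quantile normalized and took log2. Kept probes had detection p-values under 0.01 on at least 3 arrays (13945, of which 13088 carried a gene symbol in the platform annotation). One model of 4 groups was fitted to all kept probes with limma (variance trend on), and p-values were adjusted by the Benjamini-Hochberg method over them. The fit was tested on simulated data. None of the 171 pairs of arrays held identical signals. Counts over genes use the lead probe of each of 9523 genes. Precision is limited by how many arrays each group holds.

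The genes, lists and tests were chosen with earlier results of these data known. Lead-probe values of every array (for the 7 NN arrays, the lowest, median and highest) are given for Actb, Actg1, Cfl1, Tmsb4x, Coro1a, Rac2, Fermt3, Gsn (not analysed here), Capg, Lsp1 and Vav1, and, in each comparison, for called genes whose arrays did not overlap: the top 4 by rise and the top 4 by fall. Probes on which TAN 1 and TAN 2 lie more than 1 log2 unit on the same side of TAN 4 and genes with discordant probes are named, and up to 3 other actin genes called in each direction per comparison were open to naming. Alternatives were median scaling, no background correction, the authors' normalized values, no filter, a stricter filter, 1 probe per gene in the test, only the 2 groups, array weights, the low-signal set or the replicate number as a block, naive arrays of the same set, each replicate left out, and TAN 4 alone. Leaving TAN 1 and TAN 2 out of the comparisons without TAN was added after seeing the data. Promoter sequences are those of RefSeq, GRCm38.p6. The build used by the authors is not given in the sources used here.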

Additional observations from a re-analysis of the deposited data

Results flagged for a closer look

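Of 192 groups of 4 to 7 arrays tested for an outlying array, over the 64 probes, 11 were flagged, and chance flags about 1 in 20. G-MDSC replicate 1 accounted for 7 of them. It was the highest of its group for the Actb probes ILMN_2588055 (13.14, next 4.99) and ILMN_2846865 (13.47, next 4.96). It was the lowest for Coro1a by ILMN_2733793 (11.42, next 14.38) and ILMN_2787257 (15.2, next 15.78), and for Lcp1 (12.72, next 13.97), Tln1 (5.04, next 8.14) and Wasf2 (7.81, next 9.1). In SM16, replicate 5 was the lowest for Myh9 (11.67, next 12.06) and Vcl (9.87, next 10.34). Of the Wdr1 probes, SM16 replicate 1 was the highest by ILMN_2460168 (12.15, next 11.67), and SM16 replicate 3 the lowest by ILMN_2497268 (12.56, next 12.75). The cause of these values was not tested. NN gave no flag, and TAN, with 3 arrays, was not tested.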

How the results depend on the processing

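The number of genes called stayed within 1.5 times its main value in most settings. In SM16 minus TAN the 24 calls became 12 (9 higher, 3 lower) in a fit of only the 2 groups, and 1 with TAN replicate 4 alone. In G-MDSC minus NN the 17 calls became 11 under median scaling (9 higher, 2 lower) and 11 with naive arrays of the same low-signal set (3 higher, 8 lower). In SM16 minus G-MDSC the 24 calls became 14 with that set as a block. Leaving out 1 array at a time gave 14 to 25 calls in SM16 minus TAN (14 without TAN 2), 32 to 33 in TAN minus NN, 24 to 30 in SM16 minus NN, 16 to 22 in G-MDSC minus NN, 25 to 29 in TAN minus G-MDSC and 20 to 31 in SM16 minus G-MDSC. The cause was not tested in any case. The share of all genes called was counted only in the main setting and without TAN 1 and TAN 2. Of 988 alternative values of 42 single-gene results, 958 kept their direction and call, 28 lost the call and 2 changed sign: Tmsb4x in SM16 minus G-MDSC under median scaling (−0.055) and Actg1 in SM16 minus G-MDSC with the low-signal set as a block (0.16). TAN replicate 4 alone accounted for 9 of the 28. Same-numbered arrays of 2 groups correlated at −0.326 to 0.255 after group means were removed. With few arrays per group and the split within TAN, these values can neither show nor exclude pairs. SM16 1, for example, correlated at −0.245, −0.258 and 0.269 with TAN 1, 2 and 4. The numbers were not taken as pairs in the main fit. With the replicate block, calls numbered 19 in SM16 minus TAN, 31 in TAN minus NN, 25 in SM16 minus NN, 15 in G-MDSC minus NN, 26 in TAN minus G-MDSC and 20 in SM16 minus G-MDSC. Array weights were estimated without reaching convergence. Median scaling moved the median of all genes to −0.28 in SM16 minus G-MDSC, against 0.05, and to −0.15 in TAN minus G-MDSC, against 0.19.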
